A study of Mus musculus with 24 samples.

Results

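The abundant secretory proteins of the mouse ventral prostate were followed through 5 genes, Spink1 (older symbol Spink3), Msmb, Pbsn, Azgp1 and Crabp1, over 6 inbred strains. The gene names were proposed with earlier results of these data known. Every probe set of the array that the platform annotation ties to 1 of these symbols was then taken, with no rule on its values. A probe set is a group of short probes for the same transcript, and each of the 5 genes had 1, so 5 of the 22690 probe sets on the array were members and no member had a second probe set to set beside it. Total RNA of the ventral prostate of 8-week-old mice was hybridised to Affymetrix MOE430A arrays, 24 in all, with 4 biological replicates from each of BALB/c, C57BL/6, AKR, SWR, FVB and 129X1. All mice were wild type, untreated and on a standard diet, so the 6 groups differed in strain alone as far as the labels say, and no strain was a control. The labels do not say whether RNA of several mice was pooled. The title names parental strain expression as a route to cancer modifiers, and the comparisons here ask in which strains each secretory transcript was high or low.

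The ventral prostate is 1 of the lobes of the mouse prostate, and its tall luminal cells release large amounts of a few proteins into the seminal fluid under the control of androgens. Spink1 encodes a small secreted inhibitor of trypsin-like proteases with a Kazal domain, known in the mouse from the pancreas and the male accessory glands. Msmb encodes beta-microseminoprotein, a small cysteine-rich protein of prostatic fluid. Pbsn encodes probasin, an androgen-regulated member of the lipocalin family, and the rat probasin promoter is widely used to drive transgenes in the mouse prostate. Azgp1 encodes zinc-alpha-2-glycoprotein, a secreted protein with the fold of a class I histocompatibility heavy chain that is present in prostatic fluid and in fat tissue. Crabp1 differs from the other 4 in kind: it encodes a cytosolic protein that binds retinoic acid inside the cell and is not a secretory product.

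RefSeq promoter windows (GRCm38.p6, the C57BL/6 reference assembly) of 250 bases before to 50 bases after the annotated start were matched by symbol for 3 members. They are shown because Pbsn and Azgp1 were highest in different strains, and Crabp1 serves as the member that is not secreted. Capitals mark matches, on either strand, to a pair of motifs. One is the hexamer TGTTCT, which forms each arm of an androgen receptor site. On the opposite strand it reads as AGAACA, as in Pbsn. The other is TATAAA, the core of a TATA box. The motifs do not overlap in these windows.

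Pbsn, chrX:77853451-77853750, minus strand: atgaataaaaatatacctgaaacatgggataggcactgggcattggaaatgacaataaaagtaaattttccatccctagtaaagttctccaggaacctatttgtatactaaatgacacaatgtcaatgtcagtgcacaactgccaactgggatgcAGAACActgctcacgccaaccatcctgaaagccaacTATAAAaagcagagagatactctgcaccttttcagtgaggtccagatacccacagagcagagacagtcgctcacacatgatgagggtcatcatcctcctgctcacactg

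Azgp1, chr5:137981271-137981570, plus strand: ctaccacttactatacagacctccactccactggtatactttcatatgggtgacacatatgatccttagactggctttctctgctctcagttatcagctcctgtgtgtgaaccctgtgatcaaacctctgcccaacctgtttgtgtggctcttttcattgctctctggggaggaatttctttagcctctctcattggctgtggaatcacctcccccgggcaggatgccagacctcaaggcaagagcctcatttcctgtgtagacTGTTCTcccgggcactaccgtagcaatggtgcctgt

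Crabp1, chr9:54764498-54764797, plus strand: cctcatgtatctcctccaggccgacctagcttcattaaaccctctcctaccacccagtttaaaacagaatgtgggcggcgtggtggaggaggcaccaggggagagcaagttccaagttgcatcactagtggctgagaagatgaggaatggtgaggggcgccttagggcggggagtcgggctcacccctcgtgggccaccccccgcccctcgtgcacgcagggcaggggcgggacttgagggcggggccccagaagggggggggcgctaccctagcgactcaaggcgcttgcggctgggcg

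The Pbsn window held 1 hexamer, whose first base lay 95 bases before the start, and 1 TATAAA, whose first base lay 59 bases before it. The Azgp1 window held 1 hexamer, 14 bases after the start, and no TATAAA, and the Crabp1 window held neither. The hexamer occurred in 19.0% and TATAAA in 13.6% of the 32851 promoter windows of the same length, so a match is common and describes the letters only. The full palindrome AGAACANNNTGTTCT occurred in 0.00913% of windows and in none of these 3. The Crabp1 window was rich in G and C (65% of bases, with 17 CG pairs), against a median of 52.7% and 7 CG pairs over all windows, while Pbsn had 43.3% and 2 CG pairs and Azgp1 had 50.3% and 3 CG pairs.

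Signal was compared with the label first. Spink1 gave one of the brightest signals on the array, with intensities of 5133 to 11209 and a rank between 2 and 14 among all probe sets on every one of the 24 arrays. Msmb (2902 to 13216) was among the 20 brightest on 14 arrays and among the 100 brightest on 23. Pbsn (900 to 8785) was among the 100 brightest on 15 arrays, and Azgp1 (543 to 4478) on 6. Crabp1 stood apart, with intensities of 167 to 524 and ranks between 1037 and 4112, so neither its signal nor its known place in the cell matches the words abundant and secretory. Brightness also depends on the probes, so these ranks describe signal and give no order of transcript amounts between genes.

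Marker genes of luminal epithelium and seminal vesicle were read to check the tissue, which does not check the lobe. The luminal markers Krt8, Krt18, Krt19, Cdh1, Epcam, Cldn3 and Cldn7 summed to intensities of 6431 to 9765 over the 24 arrays. The 7 seminal vesicle genes with a probe set, which include the abundant secretions Svs2, Svs4 and Svs5, summed to 63.6 to 135, and 5 of the 7 did not pass the filter on dim probe sets. No listed marker was at 0 on any array in either list. Every array correlated best with another array of its own strain, and no columns were identical. RNA was taken from whole lobes, so fewer cells of a type and less RNA per cell cannot be told apart.

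Intensities below are on the linear scale after each array was rescaled to a common trimmed mean. Differences are on the scale of log2(intensity + 16), which compresses folds of dim transcripts slightly, and folds are the antilog of those differences. Each p-value comes from a limma fit to all 15775 probe sets that passed a filter on dim signal and is adjusted over all of them. A probe set is called at an adjusted p under 0.05. All 5 members passed the filter and all 5 were called in the F test for any difference among the 6 strains, where 36.4% of all tested probe sets were called. The ranges between the highest and the lowest strain mean were 1.75-fold for Spink1, 2.05-fold for Crabp1, 3.31-fold for Msmb, 3.50-fold for Pbsn and 5.19-fold for Azgp1.

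**Figure D1:**
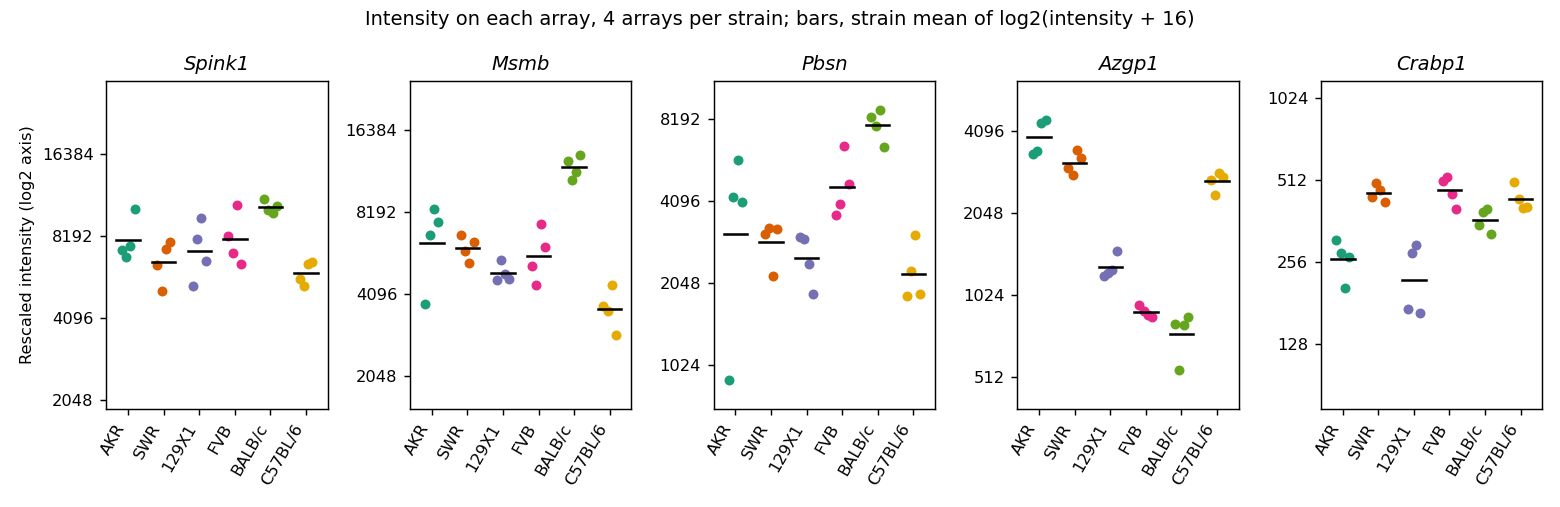
Rescaled intensity of each member on each of the 24 arrays, on a log2 axis of equal length in every panel, with strains along the horizontal axis and 4 points per strain. Bars are strain means taken on the log2(intensity + 16) scale. Msmb in BALB/c (10760 to 13216) lies above all 20 other arrays, Azgp1 falls into a high and a low trio of strains, and 1 AKR array lies low for Pbsn at 900.

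Msmb was the member whose BALB/c arrays stood clear of all others. Its intensities were 12644, 10760, 11445 and 13216 on the BALB/c arrays, against 2902 to 8380 on the other 20. No BALB/c array overlapped any other array, a pattern found in 1.27% of all tested probe sets. The mean of 12016 ± 1116 in BALB/c (SD, n = 4) was 2.30-fold above the mean of the other 5 strains on the log2 scale (difference 1.20, SE 0.15, adjusted p = 3.78e-06), where 8.3% of tested probe sets were called higher.

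C57BL/6 lay at the other end of the Msmb range. Its arrays read 3704, 3547, 4418 and 2902, against 3754 to 13216 on the other 20, and 3 of the 4 fell below every other array. The mean of 3643 ± 623 in C57BL/6 was 1.83-fold below the other 5 strains (difference -0.87, adjusted p = 0.00028), and 5.45% of tested probe sets were called lower there. Between these ends AKR (6602 ± 2014), SWR (6074 ± 613), FVB (5764 ± 1281) and 129X1 (4894 ± 404) followed each other in that order, and no neighbours among these 4 differed beyond their spread (adjusted p between 0.57 and 0.87). Of the 15 pairs of strains 8 were called for Msmb, against 11.4% of all tests over the 15 pairs. The 5 pairs with BALB/c were all called, from 1.89-fold over AKR to 3.31-fold over C57BL/6. Of these, BALB/c over AKR and over SWR were not called after quantile normalization or with an adipocyte marker score, described below, in the model. Their adjusted p was then 0.054 or more. The other 3 were AKR, SWR and FVB over C57BL/6, and each was also lost under some setting. The FVB call was lost without FVB replicate 3 or 4 or C57BL/6 replicate 1, 2 or 4 (adjusted p between 0.056 and 0.12), and the SWR call without SWR replicate 1 or C57BL/6 replicate 4 (between 0.052 and 0.067). The AKR call was lost in a fit of these 8 arrays alone (adjusted p = 0.065).

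Pbsn had the same highest and lowest strains as Msmb. The BALB/c arrays read 8292, 7658, 8785 and 6436, against 900 to 6489 on the other 20, and 3 of the 4 lay above every other array. The mean of 7793 ± 1015 in BALB/c was 2.61-fold above the other 5 strains (difference 1.38, SE 0.28, adjusted p = 0.00109). FVB came next at 3633, 3970, 6489 and 4720 (mean 4703 ± 1274), which BALB/c exceeded 1.69-fold without passing the test (adjusted p = 0.20). SWR read 3087, 3253, 2157 and 3214, 129X1 read 3011, 2970, 2401 and 1852, and C57BL/6 read 1835, 2254, 3051 and 1859. These last 3 strains overlapped one another throughout.

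The AKR arrays held the widest spread of any strain for Pbsn: replicate 1 read 900, while replicates 2, 3 and 4 read 4229, 5773 and 4039. The same array was the lowest of its strain for Msmb, at 3754 against 6730 to 8380. With all arrays, 4 of the 15 pairs were called for Pbsn, against 11.4% of all tests over the 15 pairs. Each had BALB/c on the high side. Without AKR replicate 1, 9 pairs were called, AKR exceeded C57BL/6 by 1.06 on the log2 scale (adjusted p = 0.00267), and FVB did so by 1.05 (adjusted p = 0.00125). In that fit the C57BL/6 difference from the other 5 strains was -0.90 (adjusted p = 0.00048), against -0.78 (adjusted p = 0.074) with all arrays, and that of 129X1 was -0.67 (adjusted p = 0.0063), against -0.56 (adjusted p = 0.22).

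Spink1 varied least. The BALB/c arrays read 11209, 10226, 9960 and 10580, against 5133 to 10609 on the other 20. Only 1 of the 4 BALB/c arrays lay above every other array, since single AKR and FVB arrays reached 10328 and 10609. The BALB/c mean of 10494 ± 540 was 1.48-fold above the other 5 strains (difference 0.56, SE 0.13, adjusted p = 0.00476). C57BL/6, at 5692, 5366, 6437 and 6562 (mean 6014 ± 578), was 1.32-fold below the other 5 strains, which did not pass the test (adjusted p = 0.056) but did without SWR replicate 2, 129X1 replicate 1 or FVB replicate 4 (between 0.030 and 0.044). The other 4 strains had means of 6667 to 8095, and no neighbours in the order of the 6 strains differed beyond their spread. For Spink1 3 of the 15 pairs were called, against 11.4% of all tests over the 15 pairs. They were BALB/c over C57BL/6 (1.75-fold), over SWR (1.59-fold) and over 129X1 (1.45-fold). The call over 129X1 was lost without 129X1 replicate 1 or 4 or BALB/c replicate 1, 2 or 4 (adjusted p between 0.053 and 0.14). After quantile normalization 0 of the 15 pairs were called, so all 3 calls depended on the scaling.

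**Figure D2:**
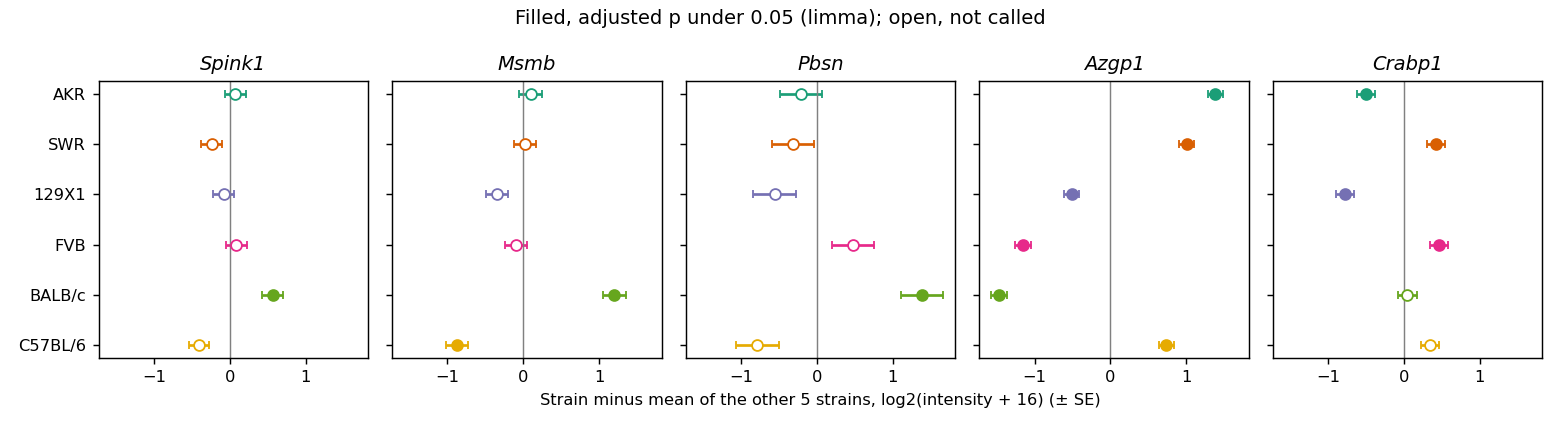
Difference of each strain from the mean of the other 5 strains for each member, in log2(intensity + 16), with standard errors as bars. Filled points were called (adjusted p under 0.05, limma) and open points were not. BALB/c is the highest strain for Spink1 (0.56), Msmb (1.20) and Pbsn (1.38) and the lowest for Azgp1 (-1.47), while Crabp1 in BALB/c (0.05) was not called.

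The order of the strains was different for Azgp1, and its arrays lay closest together within strains. The AKR arrays read 3362, 3451, 4393 and 4478 (mean 3921 ± 596), SWR read 2989, 2814, 3475 and 3247 (3131 ± 290), and C57BL/6 read 2698, 2382, 2856 and 2769 (2676 ± 206). On the low side 129X1 read 1203, 1229, 1264 and 1486 (1296 ± 130), FVB read 943, 891, 864 and 851 (887 ± 41.0), and BALB/c read 799, 543, 795 and 853 (747 ± 139). Every array of AKR, SWR and C57BL/6 was above every array of 129X1, FVB and BALB/c, with no value between 1486 and 2382. This split was named after the Azgp1 values were seen, and its share over all tested probe sets was not counted.

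Strain accounted for 97.3% of the variance of Azgp1 over the 24 arrays, against 57.2% for Spink1, 61.1% for Pbsn, 81.3% for Crabp1 and 81.8% for Msmb. The difference from the other 5 strains was called for Azgp1 in all 6 strains. It was 1.38 in AKR (adjusted p = 1.37e-09), 1.01 in SWR and 0.74 in C57BL/6, and it was -0.51 in 129X1 (adjusted p = 0.00132), -1.15 in FVB and -1.47 in BALB/c (adjusted p = 3.39e-10). Over all tested probe sets, 4.67% were called higher in AKR, 5.52% in SWR and 5.65% in C57BL/6, and 5.27% were called lower in 129X1, 3.65% in FVB and 10.6% in BALB/c. Of the 15 pairs 12 were called, against 11.4% of all tests over the 15 pairs. The exceptions were the neighbours AKR over SWR (1.24-fold), SWR over C57BL/6 (1.17-fold) and FVB over BALB/c (1.20-fold). Azgp1 in AKR exceeded Azgp1 in BALB/c 5.19-fold, and 99.2% of tested probe sets had a smaller range between strain means.

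BALB/c therefore held the highest strain mean of Spink1, Msmb and Pbsn and the lowest of Azgp1, while C57BL/6 held the lowest mean of the same first 3 and the third highest of Azgp1. Over all tested probe sets the median difference from the other 5 strains was -0.01 in BALB/c and -0.01 in C57BL/6. That median is no background for the brightest members, since the 100 brightest other probe sets scored 0.19 to 0.36 in BALB/c, as described below. The place of BALB/c for Spink1 also depended on the scaling.

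Crabp1 followed neither order. The FVB arrays read 509, 524, 457 and 400 (mean 473 ± 56.2), SWR read 445, 498, 472 and 425 (460 ± 32.0), C57BL/6 read 504, 436, 406 and 410 (439 ± 45.0), and BALB/c read 351, 392, 400 and 325 (367 ± 35.3). AKR was lower at 310, 277, 207 and 268 (265 ± 43.2), and 129X1 was lowest at 173, 276, 296 and 167 (228 ± 67.3). No AKR or 129X1 array reached the lowest array of the other 4 strains, a grouping named after the values were seen and not counted over all probe sets. The 129X1 arrays split into a pair at 167 and 173 and a pair at 276 and 296, the widest spread of any strain for this gene.

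The Crabp1 difference from the other 5 strains was -0.78 in 129X1 (1.72-fold lower, SE 0.12, adjusted p = 7.95e-05) and -0.50 in AKR (1.41-fold lower, adjusted p = 0.00921), with 5.27% and 5.12% of tested probe sets called lower in these strains. It was 0.46 in FVB (adjusted p = 0.0187) and 0.43 in SWR (adjusted p = 0.0249), with 3.45% and 5.52% called higher in these strains. It was 0.34 in C57BL/6 (adjusted p = 0.069) and 0.05 in BALB/c (adjusted p = 0.83), which were not called. Of these 4 calls only that of 129X1 held without each array in turn. The FVB call was lost without FVB replicate 1, 2 or 3 (adjusted p between 0.054 and 0.086), the SWR call without SWR replicate 1, 2 or 3 (between 0.061 and 0.11), and the AKR call without AKR replicate 3 (0.081). C57BL/6 was called without 129X1 replicate 2 or 3 (adjusted p between 0.035 and 0.049). Of the 15 pairs 7 were called, against 11.4% of all tests over the 15 pairs. FVB, SWR and C57BL/6 each exceeded both AKR and 129X1, and BALB/c exceeded 129X1 1.61-fold.

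Signals of other cell types and of the brightest probe sets moved with strain beside these values. A score was formed for each array as the mean of a marker list's log2 values, each centred on its mean over the 24 arrays. The 7 luminal markers, which belong to the cells that secrete these proteins, summed to 8548 to 9765 in BALB/c, above the 6431 to 8341 of the other 20 arrays. In BALB/c 3 of the 7 were called higher and 0 lower, against 8.3% and 10.6% of all tested probe sets. Their score overlapped, at 0.02 to 0.24 in BALB/c and -0.20 to 0.19 on the other arrays. The smooth muscle score, over 9 genes such as Acta2 and Myh11, was -0.83 to -0.61 in BALB/c, against -0.48 to 0.80 on the other arrays, and 8 of the 9 genes were called lower in BALB/c (10.6% of tested probe sets were). The basal epithelium score was -0.66 to -0.47 in BALB/c and -0.73 to -0.54 in C57BL/6. In all other strains it was higher, the next lowest array being at -0.22. The adipocyte sum over 5 measured markers was 368 to 3438 in BALB/c and 216 to 3680 in FVB, against 88.4 to 798 in the other 4 strains. The mean score of the 100 brightest other probe sets was 0.19 to 0.36 in BALB/c, against -0.32 to 0.10 on the other 20 arrays.

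The BALB/c differences were fitted again with the smooth muscle, bright probe set, luminal and adipocyte scores in the model, 1 at a time, and not with the basal score. With the smooth muscle score in the model, the BALB/c difference from the other 5 strains was 1.16 for Msmb (adjusted p = 0.058), 1.08 for Pbsn (adjusted p = 0.38) and 0.70 for Spink1 (adjusted p = 0.22), and none was called. With the bright probe set score in the model it was 0.68 for Msmb (adjusted p = 0.14), 0.77 for Pbsn (adjusted p = 0.51) and -0.15 for Spink1 (adjusted p = 0.74). Without a score these differences were 1.20 for Msmb, 1.38 for Pbsn and 0.56 for Spink1. Neither the smooth muscle nor the bright probe set score overlapped between BALB/c and the other arrays. These fits can therefore hardly separate strain from score, and a BALB/c call lost in them decides nothing. Spink1 in BALB/c was also not called after quantile normalization, at 0.05 (adjusted p = 0.73). With the luminal score the BALB/c difference was 1.34 for Msmb, 1.55 for Pbsn and 0.54 for Spink1, and with the adipocyte score it was 1.04, 1.16 and 0.61 for the same genes, all called (adjusted p of 0.045 or less). With the luminal score 5 pairs of strains were called for Msmb, against 8 without it, and 1 for Spink1, against 3. The Azgp1 difference in BALB/c was -1.52 with the smooth muscle score and -1.73 with the bright probe set score, and it was called in both fits. That of 129X1 was -0.48 with the smooth muscle score and was not called (adjusted p = 0.055). The Msmb difference in C57BL/6 was -0.89 and -0.79 in the same fits and was called in both.

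The genes whose 24 values were most like each member's were found by Pearson correlation over 9430 other genes, each at its brightest tested probe set, and these correlations are descriptions over arrays that share strain and scaling. Spink1 was most like Tpt1 (r = 0.96) and Eef1a1 (r = 0.94), which encode a translationally controlled tumour protein and a translation elongation factor and are bright in most tissues. After strain means were removed the correlations were 0.92 and 0.90, so Spink1 moved with these genes among arrays of a strain too. The bright probe set score also varied within strains, such as from -0.32 to 0.07 in 129X1. Differences among animals and among arrays cannot be told apart here. Eef1a1 read 11272, 10972, 10335 and 11038 on the BALB/c arrays, against 6162 to 10444 on the other 20. The third gene was 9530002B09Rik (r = 0.91).

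Msmb was most like Rnase1, a secreted ribonuclease (r = 0.92), Hpgd, which inactivates prostaglandins (r = 0.90), and Defb1, an antimicrobial beta-defensin (r = 0.88). Pbsn was most like Defb1 (r = 0.90), Msmb (r = 0.86) and Rnase1 (r = 0.85). With strain means removed, Msmb had correlations of 0.85 with Rnase1 and 0.88 with Defb1, and Pbsn had 0.85 and 0.90. Rnase1 read 1293, 1494, 1505 and 1722 in BALB/c, against 71.9 to 790 on the other arrays. Defb1 read 4950, 4763, 5378 and 5380 in BALB/c, against 540 to 3390. The AKR array that was low for Pbsn was also low for both, at 71.9 for Rnase1 and 583 for Defb1, while the other 3 AKR arrays read 375 to 790 and 1793 to 3223.

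Azgp1 was most like Bmpr1b, a receptor for bone morphogenetic proteins (r = 0.90), Kel, the endopeptidase of the Kell blood group (r = 0.85), and B4galnt1, an enzyme of ganglioside synthesis (r = 0.84). Within strains these correlations were -0.34, 0.06 and 0.41, so the likeness lay in the strain means. Kel had log2 means of 8.45 in AKR, 8.26 in SWR and 6.94 in C57BL/6. They were 6.11 in 129X1, 6.80 in FVB and 5.40 in BALB/c. Its C57BL/6 arrays (intensities of 96.0 to 124) overlapped those of FVB (67.5 to 122), so Kel did not split into the trios of Azgp1. Kel was picked by its correlation with Azgp1, so a similar order of strain means was built in. Crabp1 was most like Rplp0, a ribosomal stalk protein (r = 0.91, and 0.68 within strains), Nbr1, an autophagy receptor (r = 0.83), and Gpr89 (r = 0.82).

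The members were then compared among arrays of the same strain. Each value was centred on its strain mean, and all 10 pairs of members were tested by 100000 permutations of arrays within strains. Msmb and Pbsn rose and fell together (Pearson r = 0.85, permutation p = 0.00078, adjusted p = 0.0078; Spearman rho = 0.70, permutation p = 0.00324, adjusted p = 0.0324), with both values on the same side of their strain means on 18 of 24 arrays. Without the 2 arrays farthest from the median of Msmb, r was 0.67. Without AKR replicate 1 alone it was 0.66 with an adjusted permutation p of 0.052, so the call rests on that array. The other 9 pairs had r between -0.36 and 0.35 and adjusted permutation p of 0.33 or more. Their sign was not always stable. Over 4 other choices of scaling or pseudocount, r ran from -0.54 to 0.30 for Spink1 and Msmb. For Spink1 and Pbsn it ran from -0.37 to 0.12, and neither pair was called under any of them.

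**Figure D3:**
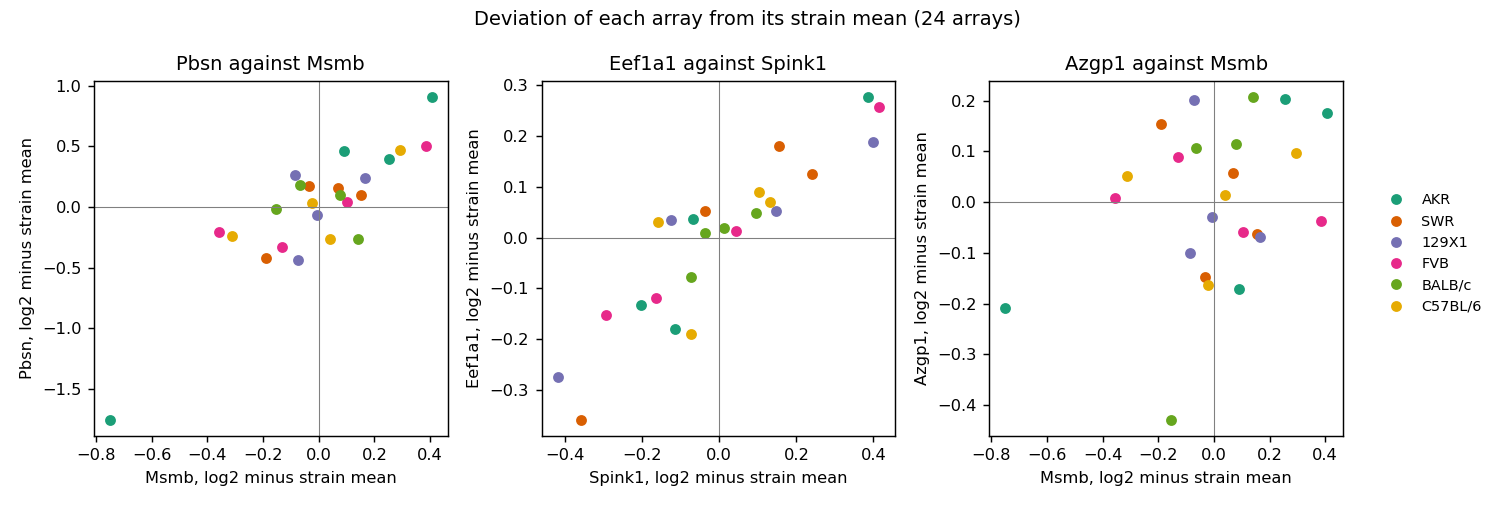
Deviation of each of the 24 arrays from its strain mean, in log2(intensity + 16), for Pbsn against Msmb, Eef1a1 against Spink1, and Azgp1 against Msmb, with colours for strains. Pbsn follows Msmb (r = 0.85), with AKR replicate 1 at the lower left, Eef1a1 follows Spink1 (r = 0.90), and Azgp1 against Msmb (r = 0.33, adjusted permutation p = 0.37) was not called.

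Other secreted products of the prostate epithelium were read beside the members. The list was chosen with earlier results of these data known, and 7 of its 10 genes had a probe set and passed the filter. All 7 were called in the F test, as were 36.4% of all tested probe sets. In BALB/c 4 of the 7 were called higher and 0 lower, against 8.3% and 10.6% of all, and the median difference over the 7 was 1.03. In C57BL/6 1 was called higher and 2 lower (median -0.42), in FVB 3 higher and 0 lower (0.27), in SWR 1 higher and 4 lower (-0.51), in AKR 2 and 2 (-0.21), and in 129X1 0 and 2 (-0.17). Over all tested probe sets, 5.65% were called higher and 5.45% lower in C57BL/6, and 3.45% and 3.65% in FVB. These shares were 5.52% and 5.04% in SWR, 4.67% and 5.12% in AKR, and 6.38% and 5.27% in 129X1. The median over all tested probe sets lay between -0.02 and 0.03 in each strain.

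The 4 genes called higher in BALB/c, named because their values were seen, were Rnase1 (2.28), Gpx3 (1.98), Pigr (1.82) and Agr2 (1.03). With the smooth muscle score or the bright probe set score in the model, 2 of the 7 were called higher, in fits that can hardly separate BALB/c from the score. Gpx3, an extracellular glutathione peroxidase, had a log2 mean of 12.63 ± 0.35 in BALB/c and 9.12 ± 0.17 in C57BL/6 (SD, n = 4 each), the same extremes as Spink1, Msmb and Pbsn. Clu, the extracellular chaperone clusterin, had its high value in FVB, at 12.51 ± 0.26, which was 2.79 above the other 5 strains, while its BALB/c difference was -0.04 (adjusted p = 0.83). Secretory transcripts of the same lobe thus had their highest means in different strains: BALB/c for Spink1, Msmb, Pbsn and Gpx3, AKR for Azgp1 and Apof (difference 1.63), and FVB for Clu.

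**Figure D4:**
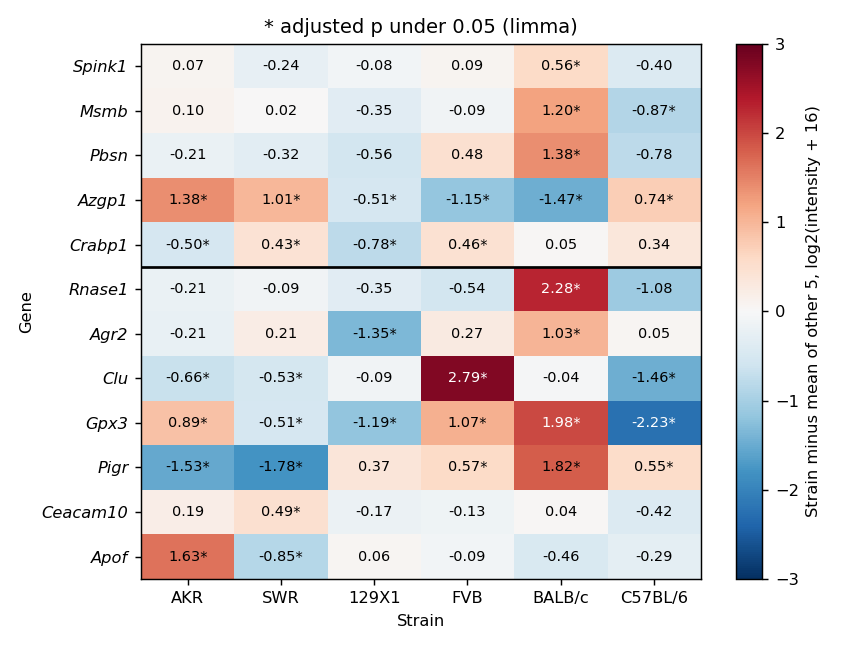
Difference of each strain from the mean of the other 5 strains in log2(intensity + 16), for the 5 members above the line and 7 other prostate secretions below it. Rows are genes, columns are strains, red is higher and blue lower, and stars mark calls (adjusted p under 0.05, limma). Spink1, Msmb, Pbsn, Rnase1, Gpx3, Pigr and Agr2 are starred and red in BALB/c, and Azgp1 is starred and blue there.

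Relatives of the members by family or pathway were counted in the same way. Among serine protease inhibitors and epithelial serine proteases, the group Spink1 acts in, 8 of 15 genes were tested and 6 were called in the F test. The share of all tested probe sets was 36.4% in the F test. In AKR 4 were called higher and 2 lower, where 4.67% and 5.12% of all tested probe sets were. In BALB/c 1 was called higher and 1 lower (median 0.06), against 8.3% and 10.6% of all, and in C57BL/6 1 and 3 (median -0.15), against 5.65% and 5.45%. Wfdc2, an inhibitor with a whey acidic protein domain, had the widest range (3.07-fold) and was lower in BALB/c (-0.86, adjusted p = 1.82e-06), the opposite sign to Spink1. Tmprss2, a membrane protease of the luminal cells, ranged 2.92-fold and was higher in AKR (0.90) and lower in C57BL/6 (-0.95).

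Of the lipocalin family, to which probasin belongs, 4 of 12 genes were tested. In the F test 3 of the 4 were called, against 36.4% of all tested probe sets. Apod, which encodes apolipoprotein D, ranged 3.22-fold, with a difference of 1.05 in FVB and -0.88 in BALB/c. Rbp4, the retinol carrier of plasma, ranged 1.94-fold and was higher in FVB (0.66, adjusted p = 0.00209). Lcn2, an iron-siderophore-binding lipocalin, was lower in BALB/c (-0.55, adjusted p = 0.00356). In BALB/c 0 of the 4 were called higher and 2 lower, against 8.3% and 10.6% of all tested probe sets. Among 4 genes, 0 called higher is little different from a share of 8.3%, so nothing is read from it.

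Of the retinoic acid pathway, in which Crabp1 acts, 17 of 24 genes were tested. In the F test 9 of the 17 were called, against 36.4% of all tested probe sets. In 129X1, where Crabp1 was lowest, 4 were called higher and 3 lower (median 0.19, against 6.38% and 5.27% of all tested probe sets), and in FVB, where it was highest, 1 and 1 (median -0.08, against 3.45% and 3.65%). Fabp5, which can carry retinoic acid to another nuclear receptor, ranged 3.87-fold with its high value in BALB/c (difference 1.80, adjusted p = 1.70e-07). Aldh1a7, a relative of the retinaldehyde dehydrogenases, ranged 3.76-fold, with differences of 1.22 in C57BL/6 and -1.07 in SWR.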

How the data were processed

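The deposited intensity values were 1 linear value per probe set and array on 24 arrays. MAS5 was used per the submitters' processing notes, with version and settings not given in the sources used here. Every deposited column had a mean of 143. The number of arrays, not a read depth, limits precision here.

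The arrays were brought to a common 2% trimmed mean of 98.7 (deposited range 91.4 to 105), 16 was added (the mean of the arrays' 25th percentiles, rounded) and log2 taken. Of 22690 probe sets, 64 controls and 6851 that did not exceed their array's 40th percentile on at least 4 arrays were left out, which left 15775. limma 3.58.1 in R 4.3.3 fitted 1 coefficient per strain (18 residual and 4.85 prior degrees of freedom), with a moderated F test, each strain minus the mean of the other 5, and 15 pairs. The two-sided p-values were adjusted by Benjamini and Hochberg over all tested probe sets within each comparison, at 0.05. Within-strain correlations used permutation tests adjusted over 10 pairs. The workflow was tested on simulated data. Promoter sequences are from RefSeq.

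The members and gene lists were chosen with earlier results of these data known. The genes named are the members, the 3 genes most like each, and from each list those with the 2 largest ranges among the called and any whose call is 1 of 3 or fewer. Others were named after their values were seen. Replicate numbers did not pair arrays: over the 60 same-numbered pairs across strains, deviations from strain means correlated at 0.0053 on average. Scaling, pseudocount, filter, variance model, array weights, replicate number, marker scores, the grouping in the fit and each array were varied.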

Additional observations from a re-analysis of the deposited data

Results flagged for a closer look

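For each member in each strain, 30 groups of 4 arrays in all, the gap between the most extreme array and its nearest neighbour was divided by the range of the group on the log2 scale. In 2 groups this ratio was above the 95% critical value of Dixon's test, and chance alone gives about 1 group in 20. Pbsn in SWR replicate 3 was low at an intensity of 2157, with the other 3 SWR arrays between 3087 and 3253, a ratio of 0.872. Azgp1 in BALB/c replicate 2 was low at 543, with the other 3 BALB/c arrays between 795 and 853, a ratio of 0.843. Both arrays were kept. The Pbsn and Azgp1 calls among the 6 strains were made without either array as well. The lowest value in the series for Pbsn, AKR replicate 1 at 900, did not exceed the critical value.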

How the results depend on the processing

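Each result was recomputed under the alternative settings and without each of the 24 arrays in turn. The F test among the 6 strains was called for Msmb, Azgp1 and Crabp1 under all of them. Spink1 was not called after quantile normalization (adjusted p = 0.44) or with the adipocyte score as covariate (0.067), and Pbsn was not called with the adipocyte score (0.095) or the bright probe set score (0.17). The bright probe set score was chosen after seeing the data. The causes were not tested. For Spink1, BALB/c minus 129X1 changed sign after quantile normalization (-0.010), and with the bright probe set score so did BALB/c minus 129X1 (-0.24), BALB/c minus SWR (-0.054) and BALB/c minus the other 5 strains (-0.15). The number of pairs of members called within strains, 1 with all arrays, ranged from 0 without AKR replicate 1 to 2 without 129X1 replicate 4. Pairs of strains called for Msmb were 3 with the smooth muscle score and 4 with the bright probe set score, against 8, and for Pbsn 1 and 0, against 4. Both scores set BALB/c apart from all other arrays, so pairs with BALB/c can hardly be tested in these fits. The adipocyte score overlapped between BALB/c and FVB, and with it 5 pairs were called for Msmb, 1 for Pbsn and 1 for Spink1. After quantile normalization these numbers were 6, 3 and 0, against 8, 4 and 3 in the main fit. Pbsn in BALB/c over AKR and over SWR was not called after quantile normalization. A fit of the 8 arrays of the pair alone also lost Pbsn in BALB/c over AKR. The other prostate secretions called lower in C57BL/6 were 4 with array weights and 4 without FVB replicate 2, against 2. With the other 20 arrays as 1 group, whose spread then holds the differences among those 5 strains, the Azgp1 differences of AKR (adjusted p = 0.065), SWR, 129X1, FVB and C57BL/6 were not called, nor was Msmb in C57BL/6 (0.0502). Crabp1 in AKR (adjusted p = 0.25), SWR and FVB was not called in that fit either, Crabp1 in SWR and FVB was not called with the smooth muscle score, and Crabp1 in SWR was not called with the adipocyte score. The replicate block gave 5521 probe sets called among strains, against 5739, and an adjusted p of 0.0101 for Spink1 and 0.00336 for Pbsn. Over the alternatives 4036 to 6108 probe sets were called.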

Other observations

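Regulators of the luminal program were read beside the members. Of 10 listed genes 6 were tested, and 5 were called in the F test, against 36.4% of all tested probe sets. In BALB/c 2 were called higher and 2 lower (median 0.05), against 8.3% and 10.6% of all. Tmprss2 (2.92-fold) and Fkbp5 (2.50-fold) had the widest ranges. Fkbp5, a chaperone gene widely used as an androgen-responsive transcript, was lower in BALB/c, at -0.96 from the other 5 strains (adjusted p = 8.05e-07). It was higher in FVB, at 0.63. Fkbp5 was thus 1 of the 2 called lower in BALB/c, beside the 2 called higher, and a link between these genes and the members was not tested. Foxa1, a pioneer factor of the prostate epithelium, was not called among strains (adjusted p = 0.078).

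Markers of other prostate lobes also moved with strain, and their part in the member values was not tested. Of 5 listed dorsolateral and anterior prostate genes 2 were tested. Trpv6, a calcium channel, had a difference of -1.95 in BALB/c and 1.15 in SWR, and Mmp7, a metalloprotease, had 1.28 in BALB/c and -1.18 in C57BL/6.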
